A study of Mus musculus with 8 samples.

Results

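The genes described here encode caspases and other proteins of inflammatory cell death: Casp1, Casp4, Casp8, Casp12, Mlkl, Ripk1, Ripk3, Gsdmd and Xaf1, 9 genes in all, of which 8 are among the 18194 genes with a named probe set here. They were taken by name, with all probe sets that the platform annotation gives to a single one of these symbols. That gave 10 probe sets of the 45101 on the array, for 8 of the 9 genes. Ripk1 had no such probe set and was not analysed here. The RNA came from fragments of small blood vessels with their pericytes, pulled from dissociated mouse brains at postnatal day 1 with magnetic beads against PECAM, an endothelial surface protein. Each of 4 mutant brains carried a knock-in of the D849V substitution in Pdgfrb, the PDGF receptor beta gene of pericytes, which keeps the receptor active without its ligand, and each of 4 control brains was wild type. All mice were of a 129S/J mixed background, each brain gave 1 array, and the sources used here do not state zygosity, sex, litter or the day of preparation. The mean log2 value of 3 Y-linked genes was 8.02 to 8.07 on mutant arrays 1, 3 and 4 and 8.06 to 8.22 on control arrays 2 and 3. It was 2.18 to 2.22 on mutant array 2 and control arrays 1 and 4, so by this measure the sexes were split unevenly.

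Caspases are proteases that cut their targets after aspartate. Casp8 starts apoptosis at death receptors and restrains necroptosis, a lytic death in which the kinases Ripk1 and Ripk3 activate Mlkl, a protein that then breaks the cell membrane. Casp1 and Casp4 belong to the inflammatory caspases, which cut gasdermin D, the product of Gsdmd, and so free the part of it that forms pores in the membrane during pyroptosis. Many genes of these pathways are known targets of interferon.

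Of the 7 genes bright enough to test, 5 rose in the mutant microvessels (Mlkl, Xaf1, Casp12, Gsdmd and Casp4) and none fell. The rises ran from 2.46-fold for Casp4 to 14.5-fold for Mlkl. Casp8 and Ripk3 did not pass, at 1.49-fold and 1.30-fold, and Casp1 was too dim to test. For comparison, 4.58% of all 11446 tested genes passed in limma's test at a Benjamini-Hochberg adjusted p under 0.05, 2.66% as higher and 1.92% as lower. With each array centred on its median, 336 genes were higher and 115 lower in place of 304 and 220. At an unadjusted p under 0.05 the count was 6 of the 7, against 2363 of all tested genes, and all 7 differences were positive. The median difference of the 7 genes was 1.63 on the log2 scale, against -0.11 over all tested genes. All 7 lay above the filter, a log2 value of 4, on all 8 arrays, so none was tested only because it was high in 1 group. In the same 5 genes every mutant array lay above every control array, as in 4.07% of all tested genes. In whole vessel fragments, which hold several cell types, more RNA per cell and more cells of a type cannot be told apart.

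**Figure D1:**
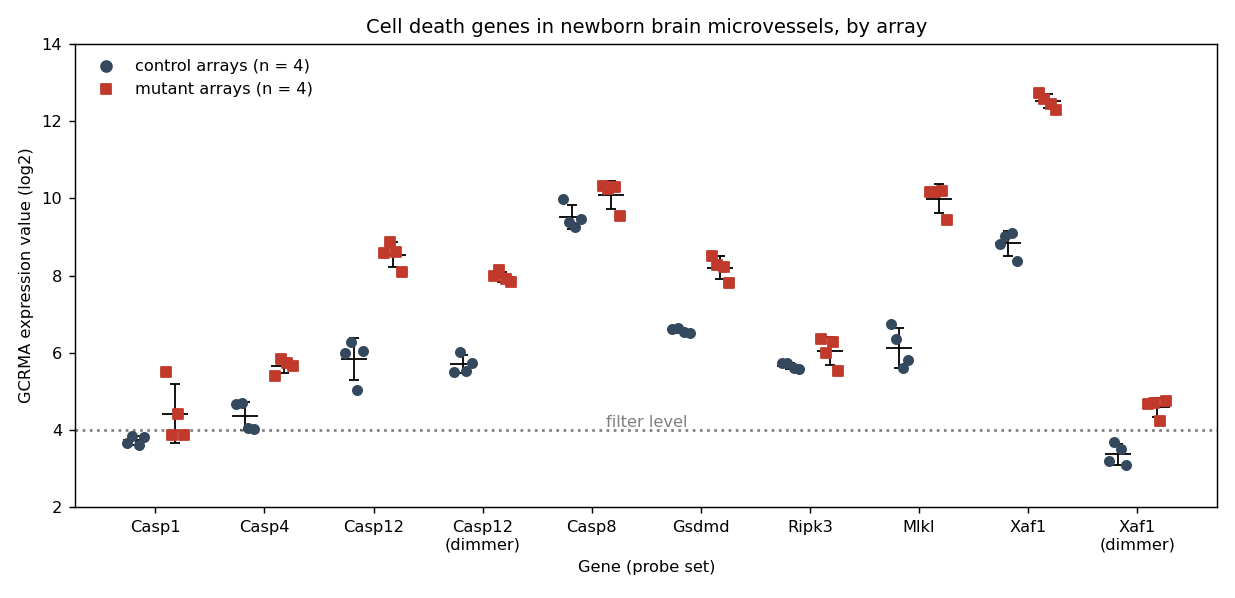
Expression values (log2, vertical axis) of the 10 probe sets of the cell death genes on each of the 4 control arrays (circles) and 4 mutant arrays (squares), with the mean and SD of each group as lines and the filter level of 4 dotted. The groups of Mlkl, Xaf1, Casp12, Gsdmd and Casp4 lie apart, those of Casp8 and Ripk3 overlap, and Casp1 and the dimmer probe set of Xaf1 lie near the filter level.

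The windows around the transcription starts of these genes, from 250 bases before the start to 50 bases after it, were read in RefSeq's sequence for GRCm38.p6, where 8 of the 9 genes had 1 or more windows. Those of Xaf1, Mlkl and Casp12 are shown because these genes had the largest rises, and that of Casp8 because it holds a run of letters also found at Xaf1. Capitals mark matches, on either strand, to letters known as targets of interferon-activated factors: GAAA followed after any 2 bases by GAAA (the core of the interferon-stimulated response element), TTCNNNGAA (the gamma-activated site of STAT factors) and AANNGAAA (the core bound by interferon regulatory factors), the last of which lies within the first and was added after the windows had been read.
Xaf1, chr11:72301379-72301678, plus strand: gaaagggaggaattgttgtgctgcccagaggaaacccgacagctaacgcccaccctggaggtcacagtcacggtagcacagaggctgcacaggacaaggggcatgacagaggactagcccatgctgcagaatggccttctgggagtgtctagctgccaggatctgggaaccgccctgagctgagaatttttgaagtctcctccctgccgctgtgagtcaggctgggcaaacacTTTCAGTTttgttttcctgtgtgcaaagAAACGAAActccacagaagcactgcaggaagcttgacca
Mlkl, chr8:111338156-111338455, minus strand: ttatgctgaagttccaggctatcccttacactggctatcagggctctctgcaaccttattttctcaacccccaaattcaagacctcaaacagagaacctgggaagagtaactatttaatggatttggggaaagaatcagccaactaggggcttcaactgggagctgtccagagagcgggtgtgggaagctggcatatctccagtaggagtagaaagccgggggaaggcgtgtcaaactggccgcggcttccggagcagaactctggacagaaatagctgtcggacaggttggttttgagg
Casp12, chr9:5345226-5345525, plus strand: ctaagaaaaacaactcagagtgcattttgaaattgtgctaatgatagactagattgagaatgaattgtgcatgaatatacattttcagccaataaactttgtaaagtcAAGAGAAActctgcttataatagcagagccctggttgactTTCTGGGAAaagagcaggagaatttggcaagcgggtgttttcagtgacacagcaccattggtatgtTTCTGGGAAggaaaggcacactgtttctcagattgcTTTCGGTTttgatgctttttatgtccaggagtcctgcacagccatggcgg
Casp8, chr1:58802252-58802551, plus strand: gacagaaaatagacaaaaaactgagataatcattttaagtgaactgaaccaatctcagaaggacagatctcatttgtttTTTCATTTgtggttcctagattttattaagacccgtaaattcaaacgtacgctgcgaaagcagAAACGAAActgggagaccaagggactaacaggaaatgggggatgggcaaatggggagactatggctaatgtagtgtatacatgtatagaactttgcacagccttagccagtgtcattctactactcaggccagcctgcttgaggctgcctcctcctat
No match to the first, the response element core, was found in the windows of the 4 risen genes that had one (Casp4, Casp12, Mlkl and Xaf1). Over all 32851 windows 3.44% held that match, and 17.9% of the windows of genes that rose did. The letters TTCNNNGAA stood at bases 149 to 157 and again at bases 215 to 223 of the Casp12 window, both times as TTCTGGGAA, against a match in 8.3% of all windows and in 10.8% of those of risen genes. The shorter AANNGAAA was found at Casp4, Casp12 and Xaf1 among the 4, and at Casp8. Counted by gene, 26.7% of all genes with a window held it, and 51.3% of risen genes with one. Counted by window the shares were 23.9% and 43.2%. One of the windows of Ripk1, which has no values here, held 1 match to the response element core, 2 to TTCNNNGAA and 1 to AANNGAAA. The longest run shared by the Xaf1 and Casp8 windows was AGAAACGAAACT, from base 260 and from base 141, which 6 of the 32851 windows held, these included. No other pair of windows was searched for a shared run, so the count says nothing of a link between these genes. The Mlkl window held none of the 3, which says only that these letters are not in it. A match is a description of the sequence, and binding was not measured.

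Among the inflammatory caspases, Casp12 changed most. This caspase is associated with the endoplasmic reticulum and is grouped with the inflammatory caspases by sequence. Its brighter probe set read 8.58, 8.87, 8.62 and 8.11 on mutant arrays 1 to 4 and 6.00, 6.28, 5.03 and 6.05 on control arrays 1 to 4. The lowest mutant value lay 1.82 above the highest control value. The difference was 2.70 on the log2 scale, or 6.50-fold (95% confidence interval 4.18 to 10.1; limma adjusted p = 0.000689). A second probe set of Casp12 read 7.97 ± 0.13 in mutants and 5.70 ± 0.24 in controls (SD over n = 4 arrays each). Its difference was 2.27 (limma adjusted p = 3.34e-05 with every probe set tested singly, where 1.85% of probe sets passed as higher), so both probe sets gave the same direction and the groups were apart on both.

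Casp4, known as caspase-11 in mice and a sensor of bacterial lipopolysaccharide in the cytosol, had values of 5.39, 5.84, 5.75 and 5.65 on the mutant arrays and 4.67, 4.70, 4.05 and 4.04 on the control arrays. The control values are close to the filter level. The groups stood 0.69 apart, and the difference was 1.30 (2.46-fold, interval 1.82 to 3.32, limma adjusted p = 0.00576). Casp1, the protease that matures interleukin-1 beta, read 5.50, 3.88, 4.43 and 3.88 on the mutant arrays and 3.67, 3.86, 3.61 and 3.82 on the control arrays. Mutant array 1 was alone in standing well clear of the filter level, and only 2 arrays passed it. All mutant values were above all control values, but by 0.02 at the closest. Without the filter Casp1 differed by 0.68 (SE 0.370, limma adjusted p = 0.5 over 18194 genes), and its dim values give no fold.

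Casp1, Casp4 and Casp12 follow one another on chromosome 9 among the genes with a probe set. The genes on either side did not share the rise of Casp4 and Casp12: the glutamate receptor subunit Gria4 differed by -0.25 (limma adjusted p = 0.496), Msantd4 by -0.20 (adjusted p = 0.352) and the PDGF ligand gene Pdgfd by -0.32 (adjusted p = 0.425). For every gene described here but Ripk1, the pair of nearest genes with a probe set on each side was taken. Among these neighbours 15 that are no members were tested. In limma's test none passed and 1 had an unadjusted p under 0.05. Their differences ran from -0.39 to 0.18.

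Gsdmd, the pore-forming target of the inflammatory caspases, read 8.52, 8.28, 8.23 and 7.80 on the mutant arrays. The control arrays read 6.63, 6.65, 6.54 and 6.51, a spread of only 0.14. The groups were 1.15 apart and the difference was 1.63 (3.09-fold, interval 2.45 to 3.90, limma adjusted p = 0.000303). Other genes that feed this pathway rose in part. Of 11 tested inflammasome sensor and pyroptosis genes 3 rose and none fell, with a list median of 0.13. Pycard, the adaptor that links inflammasome sensors to caspase-1, read 9.95, 9.84, 9.53 and 9.77 in mutants against 7.88, 8.48, 8.08 and 8.35 in controls, a difference of 1.57 (limma adjusted p = 0.00048). Averaged with its other probe sets, which lay under the filter on every array, Pycard differed by 0.60 and still passed (limma adjusted p = 0.0184). Gbp2, a guanylate-binding protein of interferon-treated cells, rose by 4.25 (limma adjusted p = 1.89e-06) and is also on the interferon list. P2rx7, an ATP-gated channel upstream of the Nlrp3 inflammasome, rose by 1.04 (limma adjusted p = 0.0241), a call that held in 2 of the 8 fits that each left out 1 array. On 3 of the 4 control arrays P2rx7 had one identical value, 4.56, so the size of its difference is no exact fold. Neither cytokine passed: Il18 read 9.04 ± 0.28 against 8.60 ± 0.15, a difference of 0.44, and Il1b 4.82 ± 1.14 against 4.59 ± 0.33 (SD over n = 4 arrays each; limma adjusted p = 0.151 and 0.832; both were named after their values were seen). The sensors Nlrp3, Nlrp6 and Aim2 lay too low to test, as did Mefv, Il1a, Il1rn and Gsdma.

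Mlkl showed the largest rise of the cell death genes. Its probe set read 10.18, 10.17, 10.20 and 9.43 on the mutant arrays and 6.74, 6.37, 5.60 and 5.82 on the control arrays. The groups stood 2.69 apart, more than the whole range of either. The difference was 3.86, or 14.5-fold (interval 9.34 to 22.6, limma adjusted p = 6.5e-05). Ripk3, the kinase that phosphorylates Mlkl, read 6.35, 6.00, 6.28 and 5.54 in mutants and 5.73, 5.73, 5.61 and 5.59 in controls. Mutant arrays 1 to 3 were above every control array, and mutant array 4 was below all of them. The difference of 0.38 (95% confidence interval -0.02 to 0.77) did not pass (limma adjusted p = 0.263). Without mutant array 4 it was 0.54 and passed (limma adjusted p = 0.0371), so the call rests on that array.

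Necroptosis has several upstream triggers and brakes, and of 16 such regulators tested 3 rose and none fell. One of the 3, Zbp1, reached the test only through the mutant arrays and so had to differ, and of the 15 that were above the filter on all 8 arrays 2 rose. The list median of all 16 was -0.15, close to that of all genes. Zbp1, a sensor of nucleic acids in the Z form that activates Ripk3, read 10.43, 10.29, 9.73 and 9.90 on the mutant arrays and stayed under the filter on all control arrays, at least 68.0-fold lower there. Tlr3, a receptor of double-stranded RNA that can reach Ripk3 through the adaptor Ticam1, rose from 8.26 ± 0.05 to 9.76 ± 0.19 (SD over n = 4 arrays each; limma adjusted p = 6.42e-05). Ticam1 itself read 4.14 ± 0.08 in mutants and 4.33 ± 0.18 in controls (limma adjusted p = 0.333; named after its value was seen). Rnf31, the catalytic subunit of the linear ubiquitin ligase that holds back death downstream of the TNF receptor, rose by 0.92 (limma adjusted p = 0.0326), which held in 1 of the 8 fits that left out an array. With the replicate number as a block in the fit, the calls of Rnf31 and P2rx7 were lost (limma adjusted p = 0.111 and 0.0732).

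**Figure D2:**
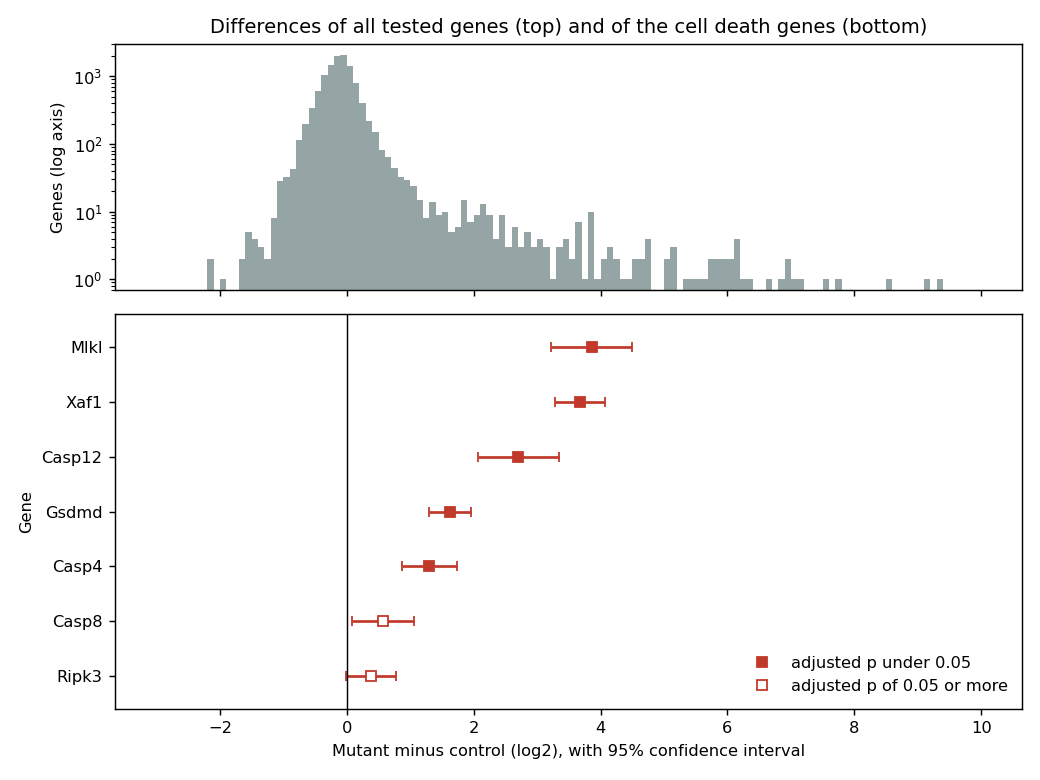
Top: number of genes (log axis) by difference between mutant and control means (log2) for all 11446 tested genes. Bottom: the differences of the 7 tested cell death genes with 95% confidence intervals, filled where the limma adjusted p was under 0.05; the 5 filled points lie between 1.30 and 3.86, and Casp8 and Ripk3 lie at 0.57 and 0.38.

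Casp8 read 10.31, 10.24, 10.29 and 9.55 on the mutant arrays and 9.98, 9.39, 9.27 and 9.46 on the control arrays. Mutant array 4 fell among the control arrays, and the other mutant arrays lay above them all. The difference of 0.57 (interval 0.08 to 1.07, before adjustment) did not pass (limma adjusted p = 0.186), nor did it without mutant array 4 (0.76, limma adjusted p = 0.0512). Cflar, the neighbouring gene on chromosome 1, encodes an inactive relative of caspase-8 that blocks it, and read 8.94 ± 0.34 in mutants against 8.98 ± 0.21 in controls (SD over n = 4 arrays each; limma adjusted p = 0.938). Of 8 tested death receptor and adaptor genes 2 rose and none fell, with a list median of 0.11. These were Tnfsf10, the death ligand TRAIL, at 1.12 (limma adjusted p = 0.00183), and Daxx, an adaptor and histone chaperone, at 1.47 (limma adjusted p = 0.000532). Fasl and the receptor gene Tnfrsf10b, also on this list, lay at the floor on every array and were not tested. The receptor gene Tnfrsf1a read 9.24 ± 0.06 in mutants and 9.16 ± 0.19 in controls, and the adaptor gene Fadd 6.34 ± 0.19 and 6.20 ± 0.29 (SD over n = 4 arrays each); both were named after their values were seen.

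Xaf1 encodes a factor that binds XIAP, the main direct inhibitor of caspases, and opposes it. Its brighter probe set read 12.74, 12.57, 12.45 and 12.30 on the mutant arrays and 8.83, 9.04, 9.10 and 8.38 on the control arrays. The gap between the groups was 3.20, the widest among the genes described here. The difference was 3.68, or 12.8-fold (interval 9.76 to 16.8, limma adjusted p = 4.01e-06). The dimmer probe set lay under the filter on every control array and was above it only on the mutant arrays, at 4.59 ± 0.24 (SD, n = 4), so it had to differ to be tested at all. With the mean of both the difference was 2.45. The binding partner did not follow: Xiap read 11.78 ± 0.16 in mutants and 11.94 ± 0.13 in controls (SD over n = 4 arrays each; limma adjusted p = 0.42). None of the 6 tested caspase inhibitors passed in limma's test, and 1 had an unadjusted p under 0.05. That was Birc3, which differed by 0.44 with groups that did not overlap (limma adjusted p = 0.0508; named after its value was seen). Birc5, a caspase inhibitor of dividing cells, read 10.32 ± 0.28 against 10.26 ± 0.19 (SD over n = 4 arrays each).

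The core apoptosis genes gave few calls. None of the 3 tested initiator and executioner caspases passed, in limma's test or at an unadjusted p under 0.05. Casp2 read 8.28 ± 0.20 in mutants and 8.51 ± 0.29 in controls, and Casp6 9.71 ± 0.20 and 9.87 ± 0.13 (SD over n = 4 arrays each). Casp9, the caspase of the apoptosome, differed by -0.22 (limma adjusted p = 0.36) and was named after its value was seen. Of 15 tested apoptosome and BCL2 family genes only Bmf, a pro-apoptotic BH3-only protein, fell, by 0.54 on the log2 scale (limma adjusted p = 0.0321), and none rose; the list median was -0.04. The fall of Bmf passed in 3 of the 8 fits that left out an array, was -0.45 and did not pass with each array centred on its median (limma adjusted p = 0.158), and did not pass with the replicate block (0.165). Averaged with its other probe sets, dim on all 8 arrays, Bmf differed by -0.17 and did not pass (0.212). Bid, the BH3-only protein that caspase-8 cuts, stood at 6.99 ± 0.38 against 5.96 ± 0.41 (SD over n = 4 arrays each), a difference of 1.03 that missed the threshold (limma adjusted p = 0.0563; named after its value was seen).

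Casp12 has been tied to stress of the endoplasmic reticulum, so genes of that response were counted too. Of 11 tested, 1 rose and none fell, with a list median of -0.10. Hspa5, the chaperone BiP (named after its value was seen), read 13.75 ± 0.10 in mutants and 13.66 ± 0.09 in controls (SD over n = 4 arrays each). The gene that passed was Ddit3, the stress transcription factor CHOP, at 0.86 on its brighter probe set (limma adjusted p = 0.0317). Its other probe set differed by -0.74 in the opposite direction (limma adjusted p = 0.258 with every probe set tested singly). The mean of both was 0.06 (limma adjusted p = 0.877), so the direction of Ddit3 depends on the probe set. The call on the brighter one held in 3 of the 8 fits that left out an array and was lost with the replicate block (limma adjusted p = 0.118).

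**Figure D3:**
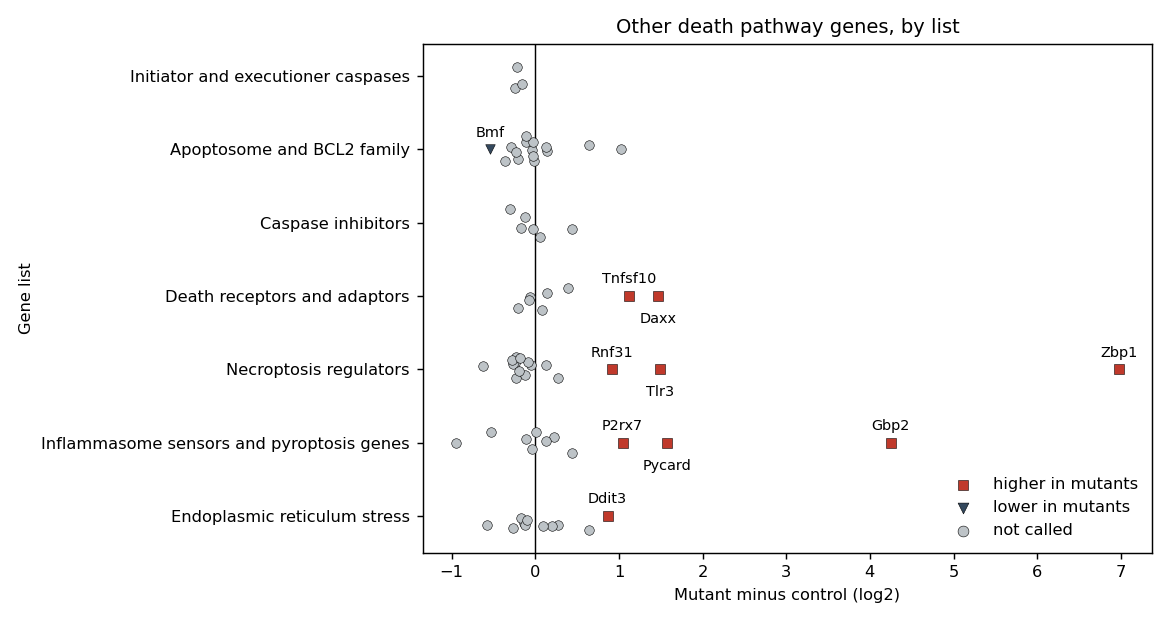
Differences between mutant and control means (log2, horizontal axis) of the tested genes of 7 death pathway lists, one list per row, with squares for genes that passed as higher, a triangle for the gene that passed as lower and circles for the rest; vertical scatter within a row has no meaning. Most points lie near 0, while Gbp2 lies at 4.25 and Zbp1 farther right, at a value that depends on its dim control readings.

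Over the 7 lists joined, 70 genes were tested, of which 9 rose and 1 fell, and their median difference was -0.06. Over all tested genes 2.66% passed as higher and 1.92% as lower. Zbp1 is among the 9 but reached the test only through the mutant arrays, so it had to differ and its call adds no support. Of the 10 calls in the joined lists, 6 (Gbp2, Pycard, Tlr3, Daxx, Tnfsf10 and, with that limit, Zbp1) passed under all 18 alternatives. The 5 risen cell death genes passed under every alternative that gave them a value, 18 for Mlkl, Xaf1, Casp12 and Gsdmd and 17 for Casp4, whose values fall under the stricter filter.

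The profile of each risen gene over the 8 arrays was set beside those of all other tested genes, as the mean absolute difference between values centred on each gene's own mean. For Xaf1 the closest were Bst2 (0.107), Trim30a (0.132) and Ifih1 (0.159). For Mlkl they were Ube2l6 (0.187), Pla1a (0.221) and Ddx60 (0.228). For Casp12 they were Tap2 (0.183), H2-K1 (0.266) and Parp12 (0.274). For Gsdmd they were Tapbp (0.117), Nmi (0.118) and Uba7 (0.122), and for Casp4 Ggt5 (0.0999), Pml (0.13) and Trpc4 (0.184). The measure includes the step between the groups, so genes with a like difference score as close.

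Within the mutant group the cell death genes were lowest on 1 array. Mutant array 4 held the lowest mutant value of 6 of the 7 tested genes, and mutant array 1 that of Casp4. The share over all tested genes was not taken, so this count cannot be called particular to the cell death genes. The mean of the 7 genes was 8.34 on mutant array 4 and between 8.83 and 8.87 on the other mutant arrays, against 6.46 to 6.94 on the control arrays. Without mutant array 4 the number of risen genes was 6, Ripk3 having joined the 5. Other lists set that array apart too: the mean of the endothelial markers was 11.66 there, against 12.13 to 12.22 on the other mutant arrays, and every control array lay above it, at up to 12.46. The mean of the neuron and astrocyte markers was highest there, at 9.22, against 8.11 to 8.99 on the other mutant arrays and 7.94 to 8.66 on the control arrays. What part the makeup of that sample has in its lower values was not tested.

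**Figure D4:**
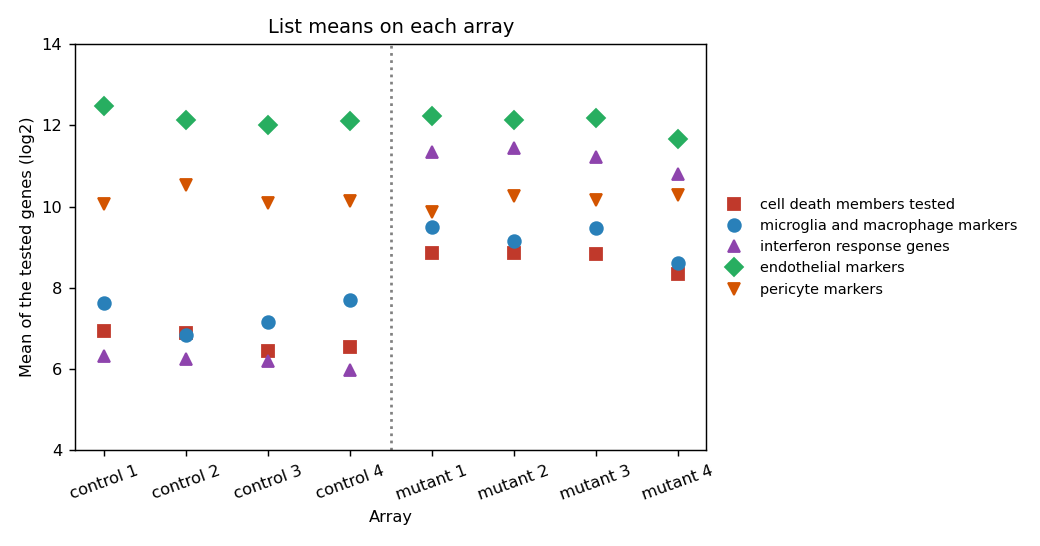
Mean expression value (log2, vertical axis) of the tested genes of 5 lists on each array (horizontal axis, control arrays left of the dotted line, mutant arrays right of it). The cell death genes, the microglia and macrophage markers and the interferon response genes lie higher on all mutant arrays than on any control array and lowest among mutants on mutant array 4; distances between lists have no meaning, since each averages other probe sets.

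Markers of other cells moved on the same arrays. Of 23 microglia and macrophage markers with a probe set 19 were tested, of which 16 rose and none fell, with a median of 1.84. The 4 with the smallest p were Aif1 (3.31), Ctss (2.26), C1qa (2.38) and Fcer1g (2.18). All 19 differences were positive, but P2ry12, Mrc1 and Cd163 did not pass (limma adjusted p = 0.133, 0.207 and 0.189). Tmem119, Siglech and Trem2 were too dim to test, as was Itgam. These genes were named after their values were seen. The mean of the 19 ran from 8.62 to 9.48 on the mutant arrays, lowest on mutant array 4, and from 6.83 to 7.71 on the control arrays. The summed linear level of the list was 13100 to 24000 against 4050 to 6250, and Itgam lay at the floor on every array. Of 18 tested interferon response genes 17 rose and none fell (13 of the 13 above the filter on all 8 arrays), and their list mean ran from 10.79 to 11.44 against 5.97 to 6.32, again lowest among mutants on mutant array 4. Several of the cell death genes are expressed by macrophages, and the part that either list has in their rises was not tested.

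Markers of the vessels themselves gave few calls. None of 10 endothelial markers passed in limma's test and 3 had an unadjusted p under 0.05; Slc2a1 read 14.47 ± 0.06 in mutants and 14.75 ± 0.12 in controls and Cldn5 14.39 ± 0.12 and 14.57 ± 0.09 (SD over n = 4 arrays each). Of 10 pericyte markers Higd1b rose (0.85) and Pdgfrb fell by 1.01 on the log2 scale on its brighter probe set (limma adjusted p = 0.041 and 0.00132; -0.46 when its probe sets were averaged, which did not pass at a limma adjusted p of 0.144). The call of Higd1b held in 1 of the 8 fits that left out an array, the one without control array 2, and was lost with the replicate block (limma adjusted p = 0.13). In limma's test 5 of the 10 pericyte markers had an unadjusted p under 0.05, 3 higher and 2 lower, and the list median was 0.01. The defining markers of T cells, Cd3d, Cd3e, Cd3g, Cd8a and Cd4, lay at the floor on every array, as did the neutrophil genes Mpo, Elane and Camp. None of the 4 tested T cell and neutrophil markers passed in limma's test or at an unadjusted p under 0.05. The summed linear level of that list was 526 to 1330 in mutants and 596 to 1150 in controls; S100a8 read 9.15 ± 0.72 and 8.83 ± 0.46, and S100a9 7.92 ± 0.56 and 7.93 ± 0.57 (SD over n = 4 arrays each). None of 12 neuron and astrocyte markers passed in limma's test and 2 had an unadjusted p under 0.05, while 11 of the 12 differences were positive and their median was 0.34, against -0.11 over all tested genes; Fabp7 read 14.65 ± 0.45 and 14.52 ± 0.20 and Slc1a3 10.75 ± 0.58 and 10.51 ± 0.43 (SD over n = 4 arrays each).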

How the data were processed

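Microvessel RNA of 4 mutant and 4 control brains (6 ug of total RNA each, per the labels' protocols) was measured on 1 array per brain. The deposited log2 expression values per probe set are the authors' GCRMA output (per the submitters' processing notes); no source used here states its version or options, and the log2 scale was read from the values, 2.18 to 16.49. GCRMA pools dim probe sets at a common floor, so folds of dim genes are compressed; arrays have no depth, and their number limits the precision. Of 45101 probe sets 34958 had a single symbol, 932 several and 9211 none here. Each of 18194 genes was represented by its brightest probe set; 11446 (62.9%), above a log2 value of 4 on at least 4 arrays, entered a two-sided test of mutant against control with no covariate (limma 3.58.1, lmFit and eBayes, under R 4.3.3) at a Benjamini-Hochberg adjusted p of 0.05. The fit was tested on simulated data. If every array of a group was under 4, a fold is a bound against that level; the floor is within 0.5 of the lowest value.

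The genes and lists were chosen with earlier results of these data known. Named genes are all members with all their probe sets; of each death pathway list up to 6 that passed, or the 2 brightest; of each cell marker list the 4 with the smallest p that passed, or the 2 brightest; for each risen member the 3 closest profiles, and the 2 nearest genes on each side. Others were chosen after their values were seen, as stated there. Lists were death pathways, endoplasmic reticulum stress, microglia, T cell and neutrophil, endothelial, pericyte, neuron and astrocyte markers and interferon response genes. Groups followed the labels; no batch is labelled, and arrays correlated at 0.967 to 0.991 within and 0.932 to 0.968 between groups. The p-values measure the spread between these brains.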

Additional observations from a re-analysis of the deposited data

Results flagged for a closer look

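Within groups of 4 arrays, 1 value stood far from the other 3 in 6 of 72 groups examined; chance marks about 1 group in 20. Mutant array 4 was low for Casp8, at 9.55 against 10.24 or more on the other mutant arrays, and for Mlkl, at 9.43 against 10.17 or more. The dimmer probe set of Xaf1 read 4.23 on mutant array 3 and 4.69 or more on the others. Control array 1 was high for Casp2, at 8.94 against at most 8.38, and control array 3 was low for Birc5, at 9.97 against 10.32 or more. P2rx7 read 4.55 on control array 2 and 4.56 on the other 3, which share the same value.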

How the results depend on the processing

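The number of cell death genes that rose was 5, and 6 without mutant replicate 4, 7 with array weights and 4 with the filter at 6, which leaves Casp4 out; it was 5 under the others, and none fell under any. The other alternatives changed the counts over other genes. Over all genes, 524 changed; this became 259 with the replicate block and 3158 with array weights, and 303 to 608 with an array left out (320 without mutant replicate 3, 322 without control replicate 3, 303 without control replicate 4). Genes higher were 304, and 895 with array weights, and 231 to 342 with an array left out. Genes lower were 220, and 135 without the filter, 115 with each array centred on its median, 38 with the replicate block, 142 with the Y-linked genes as a covariate, 125 with every probe set tested singly, 2263 with array weights, and 62 to 266 with an array left out. Array weights gave mutant array 3 a weight of 6.6 and all others at most 2.67. Death pathway genes higher were 9, and 17 with array weights, and 6 to 11 with an array left out; those lower were 1, and 0 without the filter, with a second quantile normalization, with centring, with the replicate block, with the mean of probe sets and with probe sets tested singly, 9 with array weights, and 0 to 1 with an array left out.

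With array weights Casp8 (0.78, limma adjusted p = 0.00585) and Ripk3 (0.59, limma adjusted p = 0.00915) passed. Of the 466 values of the other 26 named genes, 401 kept direction and call, 51 lost the call, 2 gained it and 12 changed sign, all in genes that had not passed: Casp6 at 0.0022 with array weights, S100a9 at 0.055 with a second quantile normalization, 0.080 with centring, 0.025 with the Y-linked covariate and 0.28 with array weights, and with an array left out Birc5 (-0.062 to 0.16), Fabp7 (-0.032 to 0.33, below 0 without mutant replicate 4) and S100a9 (-0.18 to 0.23). The 2 gained calls were of Slc2a1, as lower. They came with limma's trend and robust options (limma adjusted p = 0.0465) and with array weights (limma adjusted p = 0.0345). The cause of these changes was not tested. Deviations of same-numbered arrays correlated at -0.08, -0.48, -0.20 and 0.30. Those of differently numbered arrays were not set beside them, so these values cannot decide whether the replicate numbers pair the arrays. The block changed no call of the 7 cell death genes.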
